A study of Mus musculus with 51 samples.

Results

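Coch, Sparc and Spp1 are the genes of cochlin, osteonectin and osteopontin, all secreted proteins of extracellular matrix and bone. They were chosen by name, and these 3 genes of the 6248 measured were followed in captured regions of the mouse cochlea. Their signal was read in 4 groups of regions, neurons or supporting cells after noise or after mock exposure. All 3 genes had a value in every region and passed the filter on low values that left 4686 genes for testing. This filter took the mean over all regions used, with a cut of 1.85, and Sparc passed it through supporting-cell regions. Its means were 3.46 in mock and 2.12 in noise supporting cells, and 1.56 and 1.18 in mock and noise neurons.

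Cochlin is the most abundant noncollagenous protein of the inner ear matrix. It is made mainly by fibrocytes of the spiral ligament and spiral limbus, and mutations in COCH cause the adult-onset hearing loss DFNA9. Osteonectin is a matricellular glycoprotein that binds collagen and calcium and regulates how collagen is laid down. Osteopontin is a phosphoprotein of mineralised matrix that binds integrins and CD44, and some neurons also make it.

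The study used GeoMx, a spatial method that releases barcoded probes by light from regions picked on a section and sequences them, on fresh-frozen cochlear sections 6 µm thick. All animals were 16-week-old males of the CBA/CaJ strain, 5 for each treatment. The noise groups had received broadband noise of 100 dB SPL for 2 h, and the control groups a mock exposure. The time of collection was given as directly after exposure in the design text, but the labels' treatment entry adds 4 h. Mock exposure gave 16 neuron and 14 supporting-cell regions, and noise gave 13 and 8. Noise neuron replicate 6 was left out because all its values were equal (3.12 for each of the 3 genes), so 12 noise neuron regions were compared. The series title names a compound that activates the heat-shock pathway, but no group analysed here had received it.

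With 5 animals behind each group of 8 to 16 regions, some regions must come from the same animal, and the labels do not say which. All p-values below that count regions as independent are therefore too small. The sources used here do not say how regions were chosen. Each captured area held regions of 1 treatment only, so effects of the captured area, the section and the treatment cannot be told apart. In captured regions, fewer cells of a type and less RNA per cell cannot be told apart either.

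The promoter windows of the 3 genes are shown because Coch and Sparc were higher in one region type and Spp1 in the other. They come from RefSeq (GRCm38.p6) and run from 250 bases before to 50 bases after the annotated start: chr12:51593091-51593390 on the plus strand for Coch, chr11:55420031-55420330 on the minus strand for Sparc and chr5:104434861-104435160 on the plus strand for Spp1. Spp1 had 2 windows in the table and the first is shown. Capitals mark every match, on either strand, to the 7 motifs searched.
Coch: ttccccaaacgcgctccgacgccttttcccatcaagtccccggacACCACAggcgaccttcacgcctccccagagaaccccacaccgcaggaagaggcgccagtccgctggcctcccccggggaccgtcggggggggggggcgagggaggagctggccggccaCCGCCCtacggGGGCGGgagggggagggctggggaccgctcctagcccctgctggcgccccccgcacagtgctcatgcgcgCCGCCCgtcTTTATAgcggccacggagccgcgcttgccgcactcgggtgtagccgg
Sparc: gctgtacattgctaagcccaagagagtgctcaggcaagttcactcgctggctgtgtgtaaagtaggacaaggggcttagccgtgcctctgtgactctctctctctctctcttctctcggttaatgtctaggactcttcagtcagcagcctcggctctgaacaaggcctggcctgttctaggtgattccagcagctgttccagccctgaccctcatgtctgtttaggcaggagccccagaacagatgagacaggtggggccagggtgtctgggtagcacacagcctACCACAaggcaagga
Spp1: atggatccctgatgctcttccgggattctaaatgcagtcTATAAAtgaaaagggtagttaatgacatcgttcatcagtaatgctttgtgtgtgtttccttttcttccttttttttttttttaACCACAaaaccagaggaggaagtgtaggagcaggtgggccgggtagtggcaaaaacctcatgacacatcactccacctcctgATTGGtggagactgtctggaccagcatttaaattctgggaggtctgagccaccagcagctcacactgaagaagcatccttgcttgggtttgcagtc

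The Coch window was rich in G and C (73.7%, above 95.2% of all 32851 windows) and held 32 CpG, against a median of 7 over all windows. The Sparc window had 55.3% G and C with 4 CpG, and the Spp1 window 45.3% with 3 CpG. The GC box GGGCGG matched 3 times in the Coch window and in neither of the others, and 35.7% of all windows held it. The CCAAT box CCAAT matched once, on the opposite strand of the Spp1 window, and was held by 37.4% of windows. The letters of the TATA box, TATAAA, matched once in the Coch window, on the opposite strand at bases 254 to 259, after the annotated start. In the Spp1 window they matched once, 211 bases before the start, and 13.6% of all windows held them. The core TGTGGT, the letters bound by RUNX factors, matched once in each of the 3 windows on the opposite strand (16.8% of windows). No match was found for the E-box CACGTG (7.2% of windows), for the AP-1 motif TGANTCA (7.8%) or for GAANNTTC, a core of the heat-shock element (7.9%), and these letters are then only absent from these windows. No searched motif overlapped another in the printed windows.

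The values are scaled signal, which the authors had brought to the same upper quartile, 3.12, in every region. What 1 read was worth could be recovered for each region, and reads per region ran from 9606 to 88138, with medians of 23492 and 26704 for mock and noise neurons and of 12885 and 16880.5 for mock and noise supporting cells. No value was 0, and the lowest in each region was the worth of 1 read, so a gene at 1 read may have been lower. The median share of genes at 1 read was 31.3% and 19.2% for the neuron groups (mock first). For the supporting-cell groups it was 51.6% and 35.4%. The upper quartile itself rested on few reads in shallow regions. In mock supporting-cell replicate 3, where 1 read was worth 1.56, a signal of 3.12 was 2 reads. The scaling was thus coarse there. A negative probe, which matches no mouse transcript, had a mean signal of 1.09, 1.12, 1.54 and 1.42 in these groups, in the same order. Unlike the genes, its row did not fall on whole reads. In noise neuron replicate 1 it was at 1.07, where 1 read was worth 0.520. Comparisons with it thus set whole reads of a gene against a value not in whole reads.

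The labelled region types were checked against marker genes. Of 17 neuron markers 11 were measured, and all 11 were higher in neuron than in supporting-cell mock regions (limma, adjusted p under the threshold of 0.05, passed by 19.1% of all genes tested), with neurofilament light chain Nefl at 50.8 against 11.6. Of 12 markers of Schwann cells and satellite glia 10 were measured, and 8 were lower in neuron regions, among them the peripheral myelin gene Pmp22 at 4.79 against 15.6. Of 10 markers of organ of Corti supporting cells only Sox2 and Prox1 were measured. Sox2 was at 1.55 in mock neuron and 1.66 in mock supporting-cell regions, and Prox1 at 2.58 and 2.21. The regions labelled supporting cells thus carried glial markers, while Prox1 did not pass the test between region types and Sox2 fell under the filter on low values.

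Coch was read chiefly in supporting-cell regions. In mock supporting-cell regions its signal ran from 1.56 through a median of 9.36 to 30.1 (mean 9.96 ± 7.55 SD, n = 14, median 6 reads). In mock neuron regions it ran from 0.780 through 1.56 to 4.68 (mean 1.87 ± 1.08 SD, n = 16, median 3 reads). The groups overlapped, but all 16 neuron regions lay below the supporting-cell median and 11 of the 14 supporting-cell regions lay above every neuron region. After noise, supporting-cell regions ran from 1.56 through 3.12 to 12.5 (mean 4.30 ± 3.39 SD, n = 8) and neuron regions from 0.520 through 1.04 to 1.73 (mean 1.13 ± 0.384 SD, n = 12). There 7 of the 8 supporting-cell regions lay above every neuron region. The order of the means was thus mock supporting, noise supporting, mock neurons and noise neurons.

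Sparc followed the same order at few reads. Mock supporting-cell regions ran from 1.56 through 3.12 to 6.24 (mean 3.46 ± 1.59 SD, n = 14), with a median of 2 reads. Mock neuron regions ran from 0.520 through 1.30 to 3.12 (mean 1.56 ± 0.879 SD, n = 16), and 8 of the 16 stood at the floor of 1 read. Noise supporting-cell regions ran from 0.624 through 1.56 to 5.20 (mean 2.12 ± 1.46 SD, n = 8) and noise neuron regions from 0.445 through 1.04 to 2.08 (mean 1.18 ± 0.609 SD, n = 12), where 8 of the 12 stood at the floor. Each pair of groups overlapped, and in every group the spread of Sparc between regions was at most 1.01 times what counting error alone gives.

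Spp1 was higher in neurons, with means in the order mock neurons, noise neurons, noise supporting and mock supporting cells. Mock neuron regions ran from 18.7 through 30.5 to 42.1 (mean 30.0 ± 7.17 SD, n = 16, median 43 reads). Noise neuron regions ran from 8.32 through 22.2 to 28.1 (mean 20.6 ± 6.43 SD, n = 12), and all 12 lay below the mock neuron median. Mock supporting-cell regions ran from 4.68 through 9.88 to 15.6 (mean 9.68 ± 3.17 SD, n = 14) and noise supporting-cell regions from 3.12 through 11.7 to 14.6 (mean 10.7 ± 3.71 SD, n = 8). The mock groups did not overlap, and every neuron region lay above every supporting-cell region. The share of all genes whose groups do not overlap was not counted, and 19.1% of all genes tested passed limma in this comparison. The means of the 2 supporting-cell groups, neighbours in this order, differed by less than the spread between regions.

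**Figure D1:**
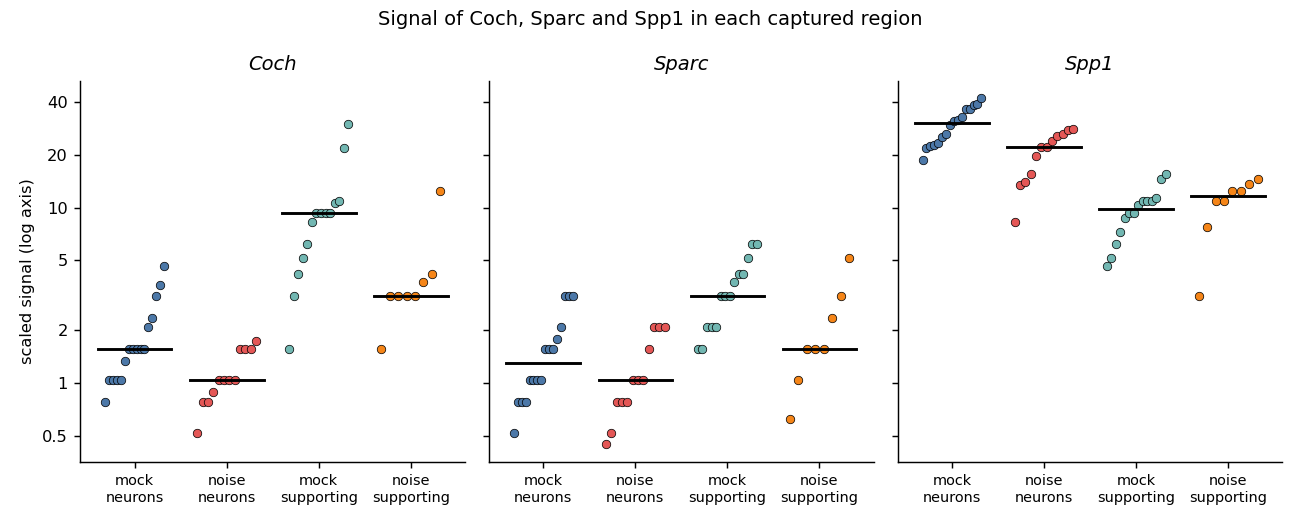
Scaled signal (log axis) of Coch, Sparc and Spp1 in each region, 1 point per region, with the group median as a line; groups are mock neurons (16), noise neurons (12), mock supporting cells (14) and noise supporting cells (8). Coch medians lie at 1.56, 1.04, 9.36 and 3.12, Sparc medians at 1.30, 1.04, 3.12 and 1.56 and Spp1 medians at 30.5, 22.2, 9.88 and 11.7.

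How far each gene stood above the negative probe of its own region set what could be read. Spp1 lay above the probe in all 50 regions, at a median ratio from 6.26 in mock supporting-cell to 28.8 in mock neuron regions. Coch lay above it in 13 of 14 mock and 7 of 8 noise supporting-cell regions (median ratios 5.38 and 2.35). In neurons Coch lay above it in 10 of 16 mock and 4 of 12 noise regions (1.77 and 0.896). Sparc was above it in 12 of 14 mock supporting-cell, 5 of 8 noise supporting-cell, 8 of 16 mock neuron and 4 of 12 noise neuron regions, with median ratios of 1.78, 1.17, 1.13 and 0.818. Sparc in neuron regions of both treatments and Coch in noise neurons thus stood at or near the level of the probe. Coch in mock neurons, at a median of 3 reads, was more than 2-fold above the probe in 7 of 16 regions and below it in 6. No test of the members against the probe was made. The spread of Coch between mock supporting-cell regions was 2.14 times that of counting error, and that of Spp1 was 1.42 times in mock and 1.74 times in noise neuron regions.

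Neurons were then compared with supporting cells. Under mock exposure all 3 genes passed the test (limma on log2(signal + 1), adjusted over the 4686 genes tested), where 19.1% of all genes tested did. Coch was lower in neurons, at -1.74 on the log2 scale (SE 0.20, adjusted p = 2.33e-16), and Sparc at -0.79 (SE 0.18, adjusted p = 0.000204). Spp1 was higher by 1.56 (SE 0.18, adjusted p = 8.19e-16). The median over all genes tested was -0.05. These SEs lean on the spread of genes with a similar mean, and the p-values are too small because regions shared animals. Permutation tests that use each gene's own values gave p = 2e-05 for Coch and for Spp1, the smallest that 100000 resamples can give, and 0.00032 for Sparc (two-sided, 0.00012 and 0.00096 after adjustment over the 12 permutation tests made). The negative probe itself was lower in neuron than in supporting-cell mock regions, by -0.29 (SE 0.07) on the same log2 scale. The worth of 1 read was lower too, by -0.32 (SE 0.10), so a gene at 1 read throughout would read lower in neurons by as much. The part of this in the difference of Sparc was not tested. With the probe of each region subtracted, Coch was at -2.13 (adjusted p = 4.43e-11, limma) and Sparc at -0.85 (adjusted p = 0.00905), so both still passed. With the mean of the olfactory receptor genes, taken as another measure of background, as a covariate, Sparc was at -0.61 and no longer passed (adjusted p = 0.108). With no filter on low values Sparc was at -0.79 (limma over 6248 genes, adjusted p = 0.000237).

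After noise 2 of the 3 genes passed, where 7.94% of genes tested did. Coch was lower in neurons by -1.17 (SE 0.25, adjusted p = 0.000133, limma) and Spp1 higher by 0.91 (SE 0.23, adjusted p = 0.0021). Sparc was at -0.45 (SE 0.23, adjusted p = 0.270) and did not pass. Exact permutation tests over 12 against 8 regions gave two-sided p = 7.94e-05 for Coch, 0.00189 for Spp1 and 0.0622 for Sparc (0.000318, 0.00378 and 0.0747 after adjustment over the 12 tests). Of the 12 neuron regions, 11 lay above the supporting-cell median of Spp1 and 1 below. With noise neuron replicate 6 put back, Spp1 was at 0.73 and did not pass (adjusted p = 0.0800).

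Every supporting-cell region came from a captured area that also held a neuron region, so the region types could be compared within an area, in 14 mock and 7 noise areas. Within mock areas Spp1 was higher in the neuron region in 14 of 14 (mean difference 1.51 ± 0.487 SD, log2, exact sign-flip p = 0.000122, the smallest 14 pairs allow). Coch was lower in the neuron region in 13 and equal in 1 (-1.78 ± 0.945 SD, exact p = 0.000244), and Sparc was lower in 13 of 14 (-0.77 ± 0.651 SD, exact p = 0.00147). Within noise areas Spp1 was higher in 7 of 7 (0.80 ± 0.299 SD) and Coch lower in 7 of 7 (-1.21 ± 0.608 SD), each with an exact p of 0.0156, the smallest that 7 pairs allow. Sparc was lower in 4, higher in 2 and equal in 1 (-0.48 ± 0.818 SD, exact p = 0.156). These p-values are two-sided, and over the 6 pair tests the 5 under 0.05 stayed so after adjustment, between 0.000732 and 0.0188; areas of 1 animal still count as separate here.

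**Figure D2:**
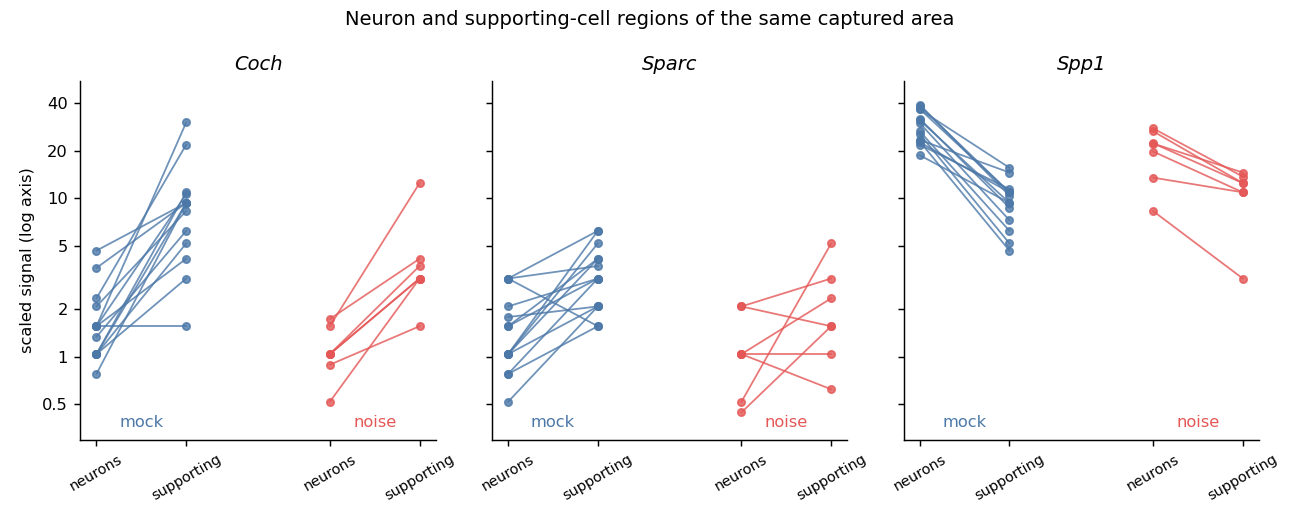
Scaled signal (log axis) in the neuron and supporting-cell regions of the same captured area, joined by a line, for 14 mock (blue) and 7 noise (red) areas. The supporting-cell region is lower in Spp1 in all 21 areas, higher in Coch in 20 of them, and higher in Sparc in 13 of 14 mock and 4 of 7 noise areas.

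Noise and mock exposure were compared within each region type. In supporting-cell regions 1 of the 3 genes passed, Coch, where 0.363% of genes tested did. Coch fell, with a change of -0.95 in log2(signal + 1) (SE 0.24, adjusted p = 0.0332, limma over 4686 genes), which is a level of 0.519 times mock on the scale of signal + 1. Of the 8 noise regions 7 lay below the mock median and 1 above, and the groups overlapped. The exact permutation test gave two-sided p = 0.0175 (0.0262 after adjustment over 12 tests), with an SE of 0.34 from the gene's own spread. As regions shared animals, both p-values are too small.

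The call for Coch was close to the threshold. It was lost when any 1 of 10 regions was left out: noise supporting-cell replicate 2 (-0.82), 4, 5, 7 or 8 (-0.92 each), or mock supporting-cell replicate 1 (-0.84), 6 (-0.92), 8 (-0.81), 9 (-0.92) or 12 (-0.93), with adjusted p between 0.0518 and 0.120. Without noise supporting-cell replicate 1, whose Coch signal of 12.5 rested on 16 reads, the fall was -1.16 (adjusted p = 0.00465). DESeq2 on recovered reads gave -1.14 (adjusted p = 0.0656), and the call was lost under 5 of the 11 alternatives, with the adjusted p running from 0.00121 to 0.237.

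Glial markers were read in the same supporting-cell regions. All 10 tested Schwann and satellite glia markers had a negative log2 fold change after noise (median -0.48, against -0.03 over all genes), and 3 passed, among them Pmp22 at -1.09 (adjusted p = 0.0111) and the myelin basic protein gene Mbp (8.61 in mock and 3.91 in noise regions, adjusted p = 0.0276). Their summed signal ran from 103 to 195 (median 128) in mock and from 48.9 to 87.3 (median 66.8) in noise supporting-cell regions, so that the groups did not overlap. Of all single genes tested 0.363% passed limma in this comparison, and the share whose groups do not overlap was not counted. Otos, the gene of the fibrocyte protein otospiralin, was at 6.68 in mock and 3.27 in noise supporting-cell regions (-0.84, adjusted p = 0.104). It did not pass, and the other measured fibrocyte markers did not share its fall. Otor (2.65 in mock and 3.43 after noise) and Slc13a3 (1.975 and 2.683) had higher means after noise. Nepn (2.15 and 2.12) and Emilin2 changed little. The 5 measured fibrocyte markers summed to 10.4 to 20.8 in mock and 9.36 to 17.9 in noise regions. The part of the glial markers in the difference of Coch was not tested.

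**Figure D3:**
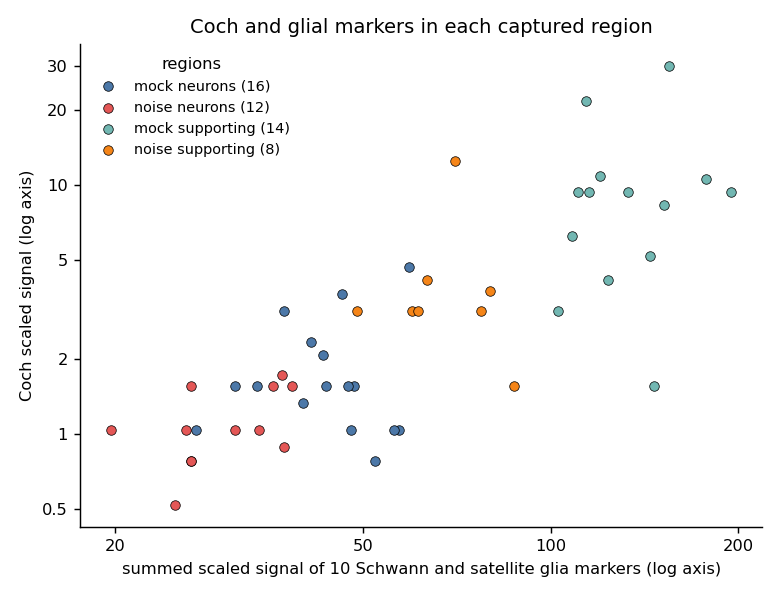
Coch signal against the summed signal of 10 Schwann and satellite glia markers, 1 point per region, both on log axes and coloured by group. Mock supporting-cell regions lie at marker sums of 103 to 195 and noise supporting-cell regions at 48.9 to 87.3, and neuron regions lie at the low end of both axes, below a Coch signal of 4.68.

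Sparc in supporting-cell regions was at -0.55 after noise (SE 0.22, adjusted p = 0.325, limma) and did not pass. The worth of 1 read was itself lower in noise than in mock supporting-cell regions, by -0.21 (SE 0.09) on this scale. Its part in the difference of Sparc was not tested. The exact permutation test gave p = 0.0357 (0.0476 over 12 tests), and on the scale of reads per 10000 the adjusted value was 0.0787, so the call depended on the scale. Spp1 was at 0.11 (SE 0.22, adjusted p = 0.910, exact permutation p = 0.672), with 6 of 8 noise regions above the mock median.

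In neuron regions none of the 3 genes passed limma, where 0.662% of genes tested did. Spp1 had the largest difference of the 3, at -0.55 (SE 0.19, adjusted p = 0.147), with 12 of 12 noise regions below the mock median and 9 of 16 mock regions above every noise region. The permutation test over its own values gave p = 0.00156 (0.00374 over 12 tests). On recovered reads edgeR's quasi-likelihood test gave -0.57 (adjusted p = 0.00327) and DESeq2 -0.54 (0.00125), and with each region scaled to the median of the tested genes Spp1 was at -0.74 (limma, adjusted p = 0.0176). With the mean of the olfactory receptor genes as a covariate it was at -0.43 (limma, adjusted p = 0.673), and with the negative probe subtracted at -0.59 (adjusted p = 0.290). Over its 11 alternatives the direction was kept and the adjusted p ran from 0.00125 to 0.673, with 3 of them past the threshold.

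Neuronal markers were read in the same regions. All 11 tested neuron markers had a negative log2 fold change after noise (median -0.29), and 1 passed, the neurofilament heavy chain gene Nefh at -0.68 (adjusted p = 0.0224). Their summed signal ran from 153 to 389 (median 248) in mock and from 103 to 241 (median 196) in noise neuron regions. Of the 10 glial markers 8 were negative and 1 passed, and their sum ran from 27.0 to 59.3 in mock and 19.8 to 38.5 in noise. The mean of the olfactory receptor genes was higher after noise by 0.18 (SE 0.04), and with it as a covariate Spp1 was at the -0.43 given above. The part of the neuron and glial markers in the difference of Spp1 was not tested. Coch was at -0.37 in neurons (SE 0.21, limma adjusted p = 0.410, permutation p = 0.0146, 0.0250 over 12 tests). Coch stood at the floor of 1 read in 6 of 16 mock and 6 of 12 noise neuron regions. The worth of 1 read differed by -0.10 (SE 0.12) between noise and mock neurons, and its part in Coch was not tested. Sparc was at -0.20 (SE 0.19, limma adjusted p = 0.670, permutation p = 0.228). After noise both were at or near the level of the negative probe, and in mock neurons their median ratios to it were 1.77 and 1.13.

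**Figure D4:**
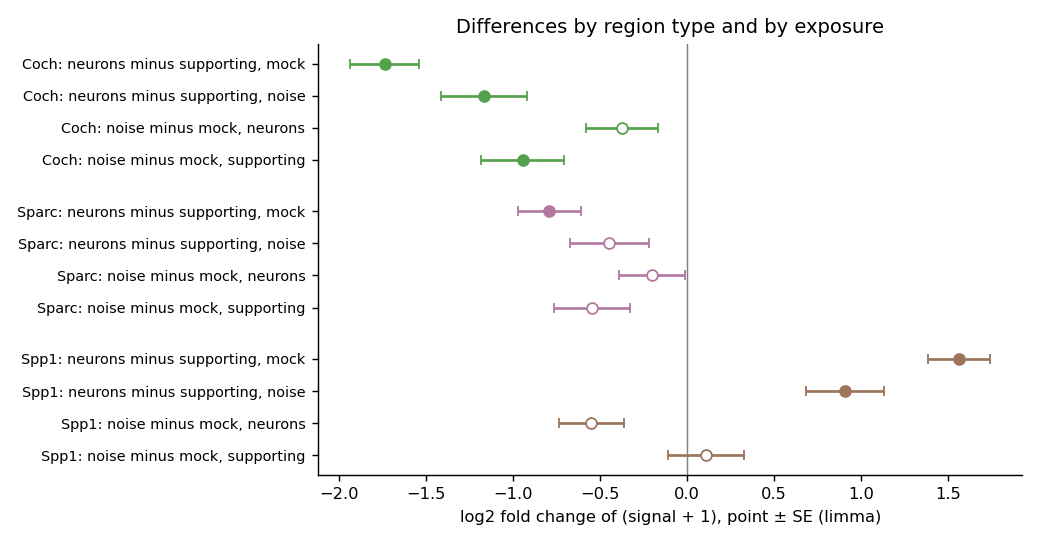
Log2 fold changes of Coch, Sparc and Spp1 with their SE (limma, log2(signal + 1)) between region types and between exposures; filled points passed an adjusted p of 0.05. Spp1 lies at 1.56 and 0.91 for neurons against supporting cells and Coch at -1.74 and -1.17, and of the noise effects only that of Coch in supporting cells (-0.95) is filled.

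Whether the noise effect differed between the region types was tested directly. The test passed in 0 of 3 members and 0% of all 4686 genes (limma, with 263 genes at an unadjusted p under 0.05). edgeR and DESeq2 also called 0 genes, with 185 and 121 at an unadjusted p under 0.05. The effect in supporting cells minus that in neurons was -0.57 for Coch (adjusted p = 0.869), -0.34 for Sparc (0.911) and 0.66 for Spp1 (SE 0.29, unadjusted p = 0.0229, adjusted p = 0.726). All 11 tested neuron markers were positive like Spp1 (median 0.50, against -0.05 over all genes), and 0 passed. Nefl (0.89), Calb2 (0.71) and Syn1 (0.68) were above Spp1, and the rest of the 11 below it. A comparison of pair differences within areas, added after the data were seen, compared 7 noise with 14 mock areas. The excess of Spp1 in neurons was 0.80 in noise and 1.51 in mock areas, a difference of -0.71 (SE 0.17, two-sided exact permutation p = 0.00315, 0.00944 over the 3 genes). That of Coch differed by 0.57 (SE 0.34, exact p = 0.159) and that of Sparc by 0.28 (SE 0.35, exact p = 0.401). These p-values too count regions or areas of 1 animal as separate.

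Other genes of the same pathways were read from lists. Of 34 genes of cochlear matrix and fibrocytes 11 were measured and 9 tested, and under mock exposure 5 were lower in neurons and 0 higher (median -0.62, against -0.05 over all genes and a background of 19.1% called). Besides Coch these were Otos (-1.07, adjusted p = 1.83e-06), the sodium-potassium-chloride cotransporter gene Slc12a2 (-0.90, 8.13e-05) and Ogn, which codes for the matrix proteoglycan osteoglycin (-0.65, 0.004). The fifth, beyond the 4 that the naming rule takes, was the calcium-binding protein gene S100a1 (-0.62, 0.00971). After noise 1 of the 9, Coch, passed between region types, where 7.94% of all genes tested did. Between noise and mock only Coch passed, in supporting cells, and 0 of the 9 passed in neurons.

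Of 37 genes of bone matrix and mineral 14 were measured and 11 tested, and 5 of the 11 passed between mock region types, where 19.1% of all genes tested did. Higher in neurons were 2, Spp1 and Phospho1, the gene of a phosphatase that starts matrix mineralisation (5.92 against 2.40, 1.02, adjusted p = 9.56e-06). Lower in neurons were Sparc, Ogn and Plod1, the gene of a collagen lysine hydroxylase (-0.49, 0.041). The list's median was -0.15. After noise 1 of the 11 passed, Spp1, near the 7.94% of all genes tested, and neither noise effect had a call among the 11. Of the 14 osteoblast and osteocyte markers 3 were measured, and 1 passed, Phospho1 in the direction just given. Their summed signal ran from 6.24 to 14.8 in mock neurons and 4.37 to 12.5 in mock supporting cells, and markers such as Bglap, Ibsp, Dmp1, Sost and Col1a1 were not analysed here. Of 8 osteoclast markers only Ocstamp was measured, between 0.520 and 4.68 in all groups, and the part of bone cells in these values was not tested.

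Several relatives of Sparc differed the other way. Of 22 genes of the SPARC family and other matricellular proteins 6 were measured and 5 tested. Under mock exposure 3 of the 5 were higher in neurons and 1 lower, where 19.1% of all genes tested passed (median 1.18, against -0.05 over all genes). Sparcl1, the gene of the synaptic matrix protein hevin, was at 93.9 against 31.0 (1.64, adjusted p = 5.76e-40). The testican genes Spock2 (14.5 against 5.46, 1.36, 7.86e-10) and Spock3 (14.1 against 6.10, 1.18, 1.52e-07) stood the same way, and Sparc was the 1 gene lower. After noise the same 3 genes were higher in neurons, with adjusted p of at most 3.36e-05, where 7.94% of all genes tested passed, and none of the 5 passed between noise and mock in either region type.

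Receptors and processing enzymes of osteopontin and osteonectin were thinly covered, with 3 of 23 genes measured. Of these 3, 1 passed between mock region types, where 19.1% of all genes tested did. It was Mmp2, a gelatinase gene, lower in neurons (-0.70, adjusted p = 0.00112, limma). Mmp2 passed the filter of 1.85 through mock supporting-cell regions, at a mean of 2.925. Its means were 1.275 in mock neurons, 1.61 in noise neurons and 1.839 in noise supporting cells, so the filter favoured this call. Itgb1, the gene of the integrin beta 1 chain, and Mmp14, that of a membrane-bound matrix protease, did not pass in any comparison. Itgb1 was at 2.84 in mock and 1.18 in noise supporting-cell regions (-0.67, adjusted p = 0.139). Of 34 genes of basement membrane and collagen 8 were measured and 3 tested. Between mock region types 1 of the 3 passed, against 19.1% of all genes tested. It was Nid1, the gene of nidogen, lower in neurons (-0.48, adjusted p = 0.0445, limma). Nid1 too passed the filter of 1.85 through supporting-cell regions, at 2.55 in mock and 2.17 in noise, against 1.51 and 1.69 in neurons.

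Other cell types were checked in the same way. Macrophage markers C1qc and Mrc1, the 2 measured of 14, fell under the filter on low values, with sums of 0.624 to 4.68 in mock neurons and 2.08 to 6.24 in mock supporting cells. Of 14 markers of endothelium and pericytes 7 were measured and 5 tested. In each treatment 1 of the 5 passed between region types, where 19.1% of all genes tested did in mock and 7.94% after noise. It was the pericyte gene Rgs5, lower in neurons (-0.52 in mock, -1.03 after noise). No hair-cell, melanocyte or blood marker gave a call (1, 2 and 0 of them were tested). The part of these cell types in the members' values was not tested.

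The genes whose pattern was most like each member were found by Pearson correlation of log2(signal + 1) over the 50 regions. The points share libraries, depth and captured areas, and the values are descriptions. For Coch the 5 highest included Gpm6b (0.71), Sox10 (0.71) and Apod (0.71), and for Sparc they included Apoe (0.65), Prom1 (0.63) and Tns1 (0.60). For Spp1 they were Fth1 (0.90), Nefh (0.89), Gnas (0.88), Stmn3 (0.86) and Ndrg4 (0.85). Sox10 and Apod are on the glial marker list used here and Nefh is on the neuron list. The median correlation over all genes tested was near 0 for each member (-0.01 for Coch).

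For Coch and Sparc these likenesses mostly followed the groups, while Fth1 and Nefh stayed the genes most like Spp1. With each group's mean subtracted, the 3 most like Spp1 were Fth1 (0.72), which codes for ferritin heavy chain, Nefh (0.66) and Eef2 (0.65), the gene of a translation elongation factor. For Coch the highest were then Pex10 (0.48), Rab21 (0.48) and Prr11 (0.44), and for Sparc Zc3h14 (0.50), Lingo4 (0.49) and Seh1l (0.49). Between the members, the correlation over all regions was 0.53 for Coch and Sparc, -0.55 for Coch and Spp1 and -0.41 for Sparc and Spp1. With group means subtracted these were 0.04, 0.05 and 0.04.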

How the data were processed

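The authors deposited 1 file of signal per region and 1 table of the series with equal values (largest difference 0), each with 6248 genes and 1 negative-probe row. Their scaling gave every region 1 upper quartile. Within a region, 99.99% of gene values were whole multiples (within 0.01) of the lowest value, taken as 1 read. The submitters' processing notes name DRAGEN, mm10 and GRCm38 without a role; gene filters are not given in the sources used here. A letter x stood in 66 entries, none of them in Coch, Sparc or Spp1, and these were missing values. For noise supporting-cell replicate 8 the labels list reads of another well, and it was used as titled.

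The main test was limma 3.58.1 in R 4.3.3 (lmFit and trended eBayes) on log2(value + 1), with a mean per group over 50 regions. The 4686 genes whose mean over the regions used reached the 0.25 quantile, 1.85, were tested, with Benjamini-Hochberg adjustment at 0.05. A low gene could pass this filter through a group where it was high, which favours calls in that direction. The log2(value + 1) scale understates changes of low genes. On recovered reads (4646 genes), edgeR 4.0.16 and DESeq2 1.42.0 were alternatives, and DESeq2 gave no adjusted p for Sparc in 3 comparisons. Members were also tested by two-sided permutation (exact where a group had under 10 regions, 100000 resamples otherwise) and by sign flips within captured areas. The fit was also run on simulated data, whose outcome is not reported here. Regions there were independent and changed genes had a minimum of expected reads. That run thus says nothing on shared animals or on changes in genes of few reads, such as Sparc. Of 61 same-numbered pairs of regions, which share only a number, 0 had correlated deviations over 0.1. For neuron and supporting-cell regions of 1 captured area the median correlation was 0.03 in 14 mock and 0.02 in 7 noise pairs. In these, 0 mock pairs and 1 noise pair were over 0.1. Of the 14 mock neuron regions, 6 were most like the supporting-cell region of their own area.

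The members and lists were chosen with earlier results of these data known. Named are the members, the 5 genes most correlated with each and the 3 after group means were subtracted, and at most 4 listed genes past the threshold per list and comparison, largest change first; values of some other listed genes are given where a result turns on them. Some genes that this rule picks are not reported here.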

Additional observations from a re-analysis of the deposited data

Results flagged for a closer look

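In the 8 noise supporting-cell regions, the one group small enough for this check, replicate 1 stood apart in Coch at a signal of 12.5, against 1.56 to 4.16 in the others, and at 8.35 reads per 10000 against 0.850 to 2.74. The value rests on 16 reads. The negative probe of replicate 2 stood apart at 1.89, against 1.24 to 1.44. These were 3 of 7 quantities checked by the gap between the most distant region and the rest, where chance gives about 1 in 20, and the 2 for Coch are the same reads on 2 scales.

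The excess of Spp1 in neuron over supporting-cell regions of the same area was smaller after noise than after mock exposure, by -0.71 on the log2 scale (7 noise and 14 mock areas, exact permutation p = 0.00315). The same quantity on reads per 10000 was -0.68 (exact permutation p = 0.00146). The test of the same difference across all genes did not pass (limma, adjusted p = 0.726), and the cause of the difference was not tested. In that limma test all 11 neuron markers differed in the same direction as Spp1, and 0 passed. The median of these markers, as the effect in supporting cells minus that in neurons, was 0.50, against 0.66 for Spp1 and -0.05 over all genes.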

How the results depend on the processing

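Coch and Spp1 between region types under mock exposure and Coch after noise kept their direction and stayed past the threshold under every alternative run. The number of genes called between noise and mock in supporting cells was 17 (3 higher) and became 7 with a pseudocount of 0.1, 11 with no filter on low values, 8 with edgeR (0 higher), 11 with DESeq2 (0 higher), 2 with edgeR on reads minus 1 and 121 after scaling to the median of the tested genes (2 higher). In neurons it was 31 (10 higher) and became 183 with edgeR (25 higher), 133 with DESeq2 (12 higher), 110 with median scaling (2 higher), 3 with olfactory receptors as a covariate, 7 with the negative probe subtracted and 19 with the replicate block. Between region types it was 893 (629 higher in neurons) under mock exposure and became 518 with DESeq2 and 407 with the olfactory covariate, and median scaling gave 995 (448 higher); after noise it was 372 and became 218 with DESeq2 and 245 with median scaling. Median scaling moved the median of all genes by -0.13 for noise in neurons, -0.18 for noise in supporting cells and -0.12 between mock region types.

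The fall of Coch in noise supporting-cell regions no longer passed with a pseudocount of 0.1 (-1.10), DESeq2 (-1.14), edgeR on reads minus 1 (-1.21), the olfactory covariate (-0.92) or the negative probe subtracted (-1.18). Spp1 in neurons passed with edgeR (-0.57), DESeq2 (-0.54) and median scaling (-0.74). Sparc between mock region types did not pass with the olfactory covariate (-0.61), nor Spp1 between noise region types with replicate 6 kept (0.73). The permutation test of Sparc in supporting cells was lost on mean signal (-1.34) and on reads per 10000 (-0.43), and that between noise region types passed on reads per 10000 (-0.44, adjusted p = 0.0499). Reads per 10000, edgeR on reads minus 1, the fixed area block and the pair comparison were added after the data were seen. The cause of these changes was not tested.

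Leaving out 1 region at a time gave 12 to 35 genes called in neurons (31 in all regions), fewest without noise neuron replicate 2, and 3 to 21 in supporting cells, fewest without noise supporting-cell replicate 7. Coch in supporting cells then ran from -1.16 to -0.81. The replicate block changed no call of the 3 genes; same-numbered regions share only a number. Depth limits Coch and Sparc most: group medians were 1 to 2 reads for Sparc and 1.5 to 6 for Coch.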
